A study of Drosophila melanogaster with 17 samples.

Results

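The pericentric ends of the assembled chromosome arms of Drosophila melanogaster are the stretches of each arm that border the unassembled centromeric heterochromatin. They were chosen by position alone, as 5 kb windows in release 5 (dm3) coordinates, counted from 1. The windows cover 2L:22000001-23011544, 3L:22950001-24543556, X:22000001-22422827 and 3R:1-380000. This gave 683 of the 24080 windows on 2L, 2R, 3L, 3R, 4 and X, namely 203 on 2L, 319 on 3L, 85 on X and 76 on 3R. Together they hold 3.41 Mb, or 3.48% of these 4 arms, and they were compared with the other 18896 windows of the same arms. A fragment was counted in the window that holds its midpoint.

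Pericentric chromatin is known for dense transposon remnants and satellite repeats, for methylation of histone H3 at lysine 9 and for binding of the protein HP1, which in flies is needed for heterochromatic silencing. The linker histone H1 binds the DNA where it enters and leaves the nucleosome and lengthens the spacing between nucleosomes. In flies it is also needed for the compaction of pericentric heterochromatin. ISWI is the ATPase of several remodelling complexes that space nucleosomes evenly. Micrococcal nuclease (MNase) cuts the linker DNA between nucleosomes, so that a limited digest leaves a ladder of fragments that span 1, 2, 3 or more nucleosomes. The tables hold DNA fragments only, with no histone mark and no RNA, so neither the heterochromatic state of these windows nor the efficiency of a knockdown was measured.

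DNA cut with MNase was sequenced in 17 libraries, 10 read on nanopore devices as total digested DNA and 7 on Illumina. The BG3-c2 line was derived from the central nervous system of larvae and the Kc line from embryos. Cells were kept at 26°C, and MNase acted on their nuclei for 20 min at 37°C. Nanopore groups with 2 libraries each were untreated BG3-c2 cells, Kc cells with control dsRNA against GST and Kc cells with dsRNA against histone H1, given again on day 3 and harvested on day 6. Illumina groups with 2 libraries each held tetranucleosomal DNA of BG3-c2 cells with control dsRNA against GST or with 50 µg of ISWI dsRNA, harvested on day 6. Naked genomic DNA of BG3-c2 cells cut with MNase gave 1 nanopore library. Untreated BG3-c2 chromatin digested to 3 degrees (low, medium, high) gave 1 library per degree on each platform. The nanopore digests held total ladders and the Illumina digests size-selected tetranucleosomes. Below, tetranucleosomal libraries without a digest named are those with GST or ISWI dsRNA. BG3-c2 and Kc are established lines, and a line is 1 genotype. The labels do not say whether replicates came from separate cultures, so p-values measure only the spread between these libraries. The labels give no separate dose or days for the GST dsRNA.

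The pericentric ends received 936 to 64828 reads per nanopore library and 25561 to 2450346 distinct fragments per Illumina library. Replicate 2 of the Kc control and of the Kc H1 group were shallow, with 936 and 955 pericentric reads against 46615 and 25180 in replicate 1. Of all intervals, 14.7% to 46.6% of the 4 tetranucleosomal libraries lay on the arms, against 75.9% to 84.7% in the other 13 libraries. Nanopore reads in the pericentric ends carried lower alignment scores. A score of at least 20 was held by 77.4% to 80.8% of the pericentric reads in the 9 scored libraries, against 96.3% to 98.0% of reads in the rest of the arms. Naked DNA showed the same gap, with 80.4% and 97.8%. The table of untreated BG3-c2 replicate 2 has no score. Bins of 1 kb with over 5 times the median count in a deep library, called dense bins here, were found over the whole arms and made up 60 of 1012 bins on 2L, 125 of 1594 on 3L, 7 of 423 on X and 23 of 380 on 3R.

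The first comparison asked how many fragments the pericentric ends gave relative to the rest of the same arms. Kc cells gave more pericentric reads per base than the rest of the arms, and BG3-c2 cells gave fewer. The log2 ratio of fragment density, as a mean of the 4 arm ends weighted by their windows, was -0.097 and -0.45 in the 2 untreated BG3-c2 libraries. In Kc cells it was 0.41 and 0.36 after control dsRNA and 0.38 and 0.42 after H1 dsRNA. The 4 Kc libraries lay above 0 and did not overlap with the BG3-c2 libraries. Naked BG3-c2 DNA gave -0.24, with a counting error of 0.0059 (SE). With reads of a score of at least 20 alone, the Kc ratios were 0.11, 0.072, 0.057 and 0.078 and naked DNA gave -0.52, so the raw excess in Kc was smaller among well-scored reads. The mean over naked DNA filtered alike was 0.51 in the 5 scored libraries of these groups, against 0.53 in the same 5 libraries without the filter. Untreated BG3-c2 replicate 2, which has no score, is not in either mean.

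Taken over naked DNA, the log2 ratio was 0.14 and -0.21 in BG3-c2, 0.64 and 0.60 in Kc control and 0.62 and 0.65 in Kc H1 libraries. The mean was 0.41 ± 0.36 (SD, n = 6), above 0 in 5 of 6 libraries, and did not pass the exact two-sided sign-flip test (p = 0.0938, smallest possible 0.0312). The same naked DNA library was subtracted from every value, so its error is not in this p-value. The 6 libraries also pool both lines and the H1 knockdown and are not replicates of a single condition. Against only the 2 Mb next to the border the mean was 0.20. It was 0.31 without dense bins and 0.12 from window medians, where the median window of each shallow Kc replicate held 1 read in both regions. Naked DNA of Kc cells was not analysed here, so that copy number of the pericentric ends in Kc and their recovery from chromatin cannot be told apart. BG3-c2 untreated minus Kc control gave -0.66, or -0.50 within replicate 1 and -0.81 within replicate 2, with an exact permutation p of 0.33, the smallest for 2 against 2 libraries. The effect of the line and that of the dsRNA cannot be told apart in that difference.

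Arm ends differed among themselves. Over naked DNA, the Kc control libraries gave 0.57 and 0.53 on 2L, 0.77 and 0.68 on 3L, 0.59 and 0.80 on 3R and 0.38 and 0.30 on X. The Kc H1 libraries gave 0.56 and 0.57 on 2L, 0.74 and 0.83 on 3L, 0.51 and 0.59 on 3R and 0.41 and 0.22 on X. The end of X was the lowest of the 4 in each of these 4 libraries. In tetranucleosomal DNA of BG3-c2, which has no naked counterpart on its platform, the end of X was also the lowest. Its log2 density ratio to the rest of X was -0.69 and -0.60 in the controls and -0.86 and -0.68 after ISWI dsRNA. The end of 3R was the only one above 0 in these 4 libraries, at 0.096, 0.098, 0.085 and 0.071.

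**Figure D1:**
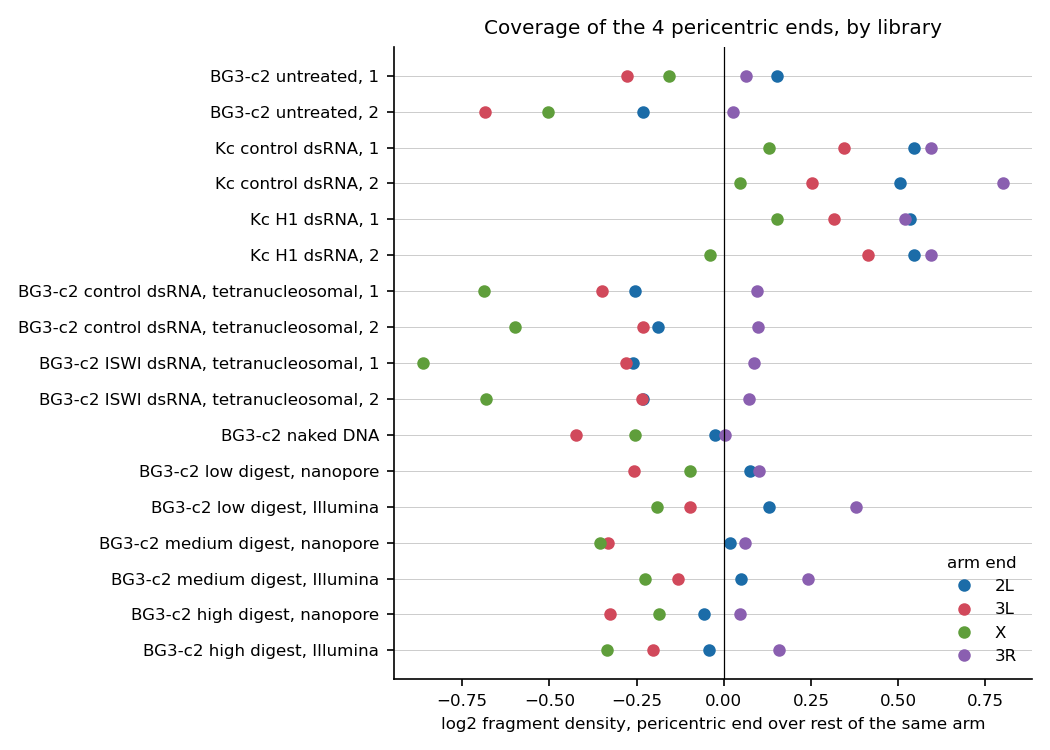
Log2 fragment density of each pericentric end over the rest of its arm (x axis) in each of the 17 libraries (rows), 1 point per arm end. The Kc libraries lie to the right, with 2L between 0.51 and 0.55, while the end of X lies lowest in the tetranucleosomal libraries, between -0.86 and -0.60.

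Single windows stood out from the others. The 3 member windows highest over naked DNA in untreated BG3-c2 cells were 2L:22790001-22795000, 2L:22410001-22415000 and 3L:23400001-23405000, with a mean log2 ratio of 1.28, 1.07 and 1.06. The 3 lowest were 3L:23055001-23060000, 2L:22520001-22525000 and 3L:23605001-23610000, with -1.75, -2.09 and -2.54. The first 2 of these lowest windows held 9 and 10 reads in replicate 1 (-0.88 and -1.15) and 0 in replicate 2, where the ratio is set by the pseudocount of 0.5. The last held 1026 reads in naked DNA but 36 and 6 in the untreated BG3-c2 libraries. It held 184, 97 and 69 reads in the low, medium and high nanopore digests of the same line. As shares of pericentric reads, these digests gave 2.21%, 0.99% and 0.96%. Naked DNA gave 1.58% and the untreated BG3-c2 libraries 0.24% and 0.29%, so the window was not low in every chromatin library.

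2 further windows on 3L were picked after their values were seen, since they held the most fragments in a group. Window 3L:24165001-24170000 held 1853 of the 46615 pericentric reads of Kc control replicate 1 (3.98%), and 4.38%, 4.04% and 4.40% in Kc control replicate 2, H1 replicate 1 and H1 replicate 2. In BG3-c2 it held 0.16% and 0.097% of pericentric reads in chromatin and 0.18% in naked DNA, so that it set Kc apart from BG3-c2. Without it the Kc ratios were 0.34, 0.29, 0.32 and 0.35. Window 3L:23105001-23110000 held 3.16% and 3.27% of the pericentric fragments in the tetranucleosomal controls and 3.82% and 3.77% after ISWI dsRNA. Its share was 0.37%, 0.53% and 0.78% in the low, medium and high Illumina digests and 0.31% in naked DNA.

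The ladder itself was compared next, by the share of fragments of up to 250 bp (about 1 nucleosome) and of over 450 bp. In the nanopore groups with 2 libraries each, the ladder of the pericentric ends showed no common difference from that of the rest of the arms. Short fragments made up 2.27% (Wilson 95% interval 2.05 to 2.52) of pericentric reads in BG3-c2 replicate 1, against 2.06% in the rest. In BG3-c2 replicate 2 they made up 6.17% (5.21 to 7.29) against 5.25%. The Kc control values were 1.07% against 0.97% and 0.21% against 0.75%, and the Kc H1 values 0.68% against 0.78% and 2.20% against 1.74%. The sign of the difference varied between libraries. Its mean was 0.18 ± 0.49 percentage points (SD, n = 6, exact sign-flip p = 0.406), and that of long fragments -0.33 ± 1.27 percentage points (SD, n = 6, exact sign-flip p = 0.594). The mean for short fragments was 0.030 without BG3-c2 replicate 2 and 0.32 without Kc control replicate 2. In all 9 nanopore chromatin libraries it was 0.40 for short and -0.74 for long fragments. Intervals cover counting error only.

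Naked DNA and Illumina libraries moved in opposite directions. In naked DNA, short fragments were 14.8% of pericentric reads against 12.6% in the rest. In tetranucleosomal DNA they were fewer in the pooled pericentric ends of all 4 libraries. The difference was -3.00 and -3.46 percentage points in the controls and -3.41 and -5.23 after ISWI dsRNA. The end of X went the other way in the controls, at 0.35 and 0.28, but not after ISWI dsRNA (-0.82 and -1.91). On 3L the difference was largest, at -4.14 and -4.74 in the controls and -4.68 and -7.11 after ISWI dsRNA. The titration libraries on Illumina, which are size-selected, showed differences of -1.51 to -1.13 percentage points. Those on nanopore, of total DNA, showed 0.018, 0.71 and 1.80 in the low, medium and high digest. Fragments over 450 bp differed there by -0.80, -1.29 and -2.59 percentage points, so the gap was larger in the stronger digests. In the high digest short fragments were 13.2% (12.4 to 14.0) of pericentric reads against 11.4%, and long ones 35.9% (34.8 to 37.0) against 38.5%. At the end of X alone the low, medium and high Illumina digests gave 0.35, 0.60 and 0.43. The share of copies removed as identical intervals also differed on Illumina, with 82.2% of intervals distinct in the pericentric ends of control replicate 2 against 79.4% in the rest, and its part in these differences was not tested.

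Response to loss of the linker histone was examined in Kc cells. The pericentric ladder had its maxima for 2 to 5 nucleosomes at 371, 549, 741 and 937 bp in control replicate 1 and at 345, 491, 654 and 827 bp in H1 replicate 1. In the rest of the arms the maxima lay at 372, 546, 731 and 913 bp and at 345, 489, 664 and 837 bp. All 4 pericentric maxima thus lay at shorter lengths in the H1 library.

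Nucleosome repeat length was taken as the period of a damped cosine fitted to the length distribution, a measure chosen after the data were seen. In the pericentric ends it was 180.5 ± 0.84 bp (SE of the fit) and 170.3 ± 4.23 bp in the control libraries, and 156.6 ± 1.52 bp and 158.1 ± 5.13 bp in the H1 libraries. The groups did not overlap. The mean difference was -18.0 bp. Replicate 1 alone gave -23.9 bp and replicate 2 alone -12.1 bp (exact permutation p = 0.33, smallest possible). The mean spacing of the maxima gave -34.5 bp, and -10.8 bp with a wider smoothing (SD 20 bp), where the groups overlapped (exact permutation p = 0.667). The same values of the cosine fit in the rest of the arms were 179.8, 185.1, 157.9 and 163.3 bp. The H1 change in the pericentric ends minus that in the rest was 3.89 bp, with -1.97 bp in the first replicates and 9.74 bp in the second (exact permutation p = 1). Its sign was thus not settled. Untreated BG3-c2 cells had pericentric repeat lengths of 183.0 ± 1.17 and 197.6 ± 3.84 bp, against 181.8 and 196.2 bp in the rest. The cosine could not be fitted in naked DNA. In the nanopore digests of BG3-c2 the pericentric repeat length was 192.8 bp in the low and 168.2 bp in the high digest. Fragments over 450 bp made up 74.9% and 90.8% of pericentric reads in the Kc controls and 82.2% and 79.8% after H1 dsRNA. The part of digestion in the H1 difference was not tested.

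**Figure D2:**
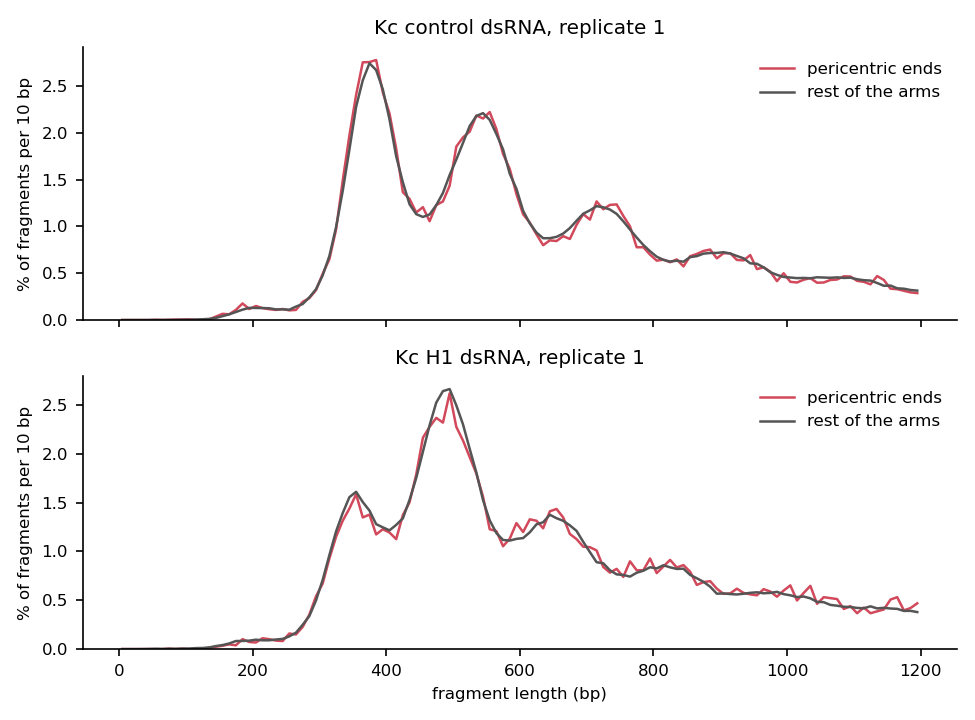
Length distribution of nanopore reads in Kc replicate 1 (percent of fragments per 10 bp against length in bp), in the pericentric ends and in the rest of the arms. The curves of the regions run together in each library, and the maxima lie at 371, 549 and 741 bp in the control and at 345, 491 and 654 bp after H1 dsRNA in the pericentric ends.

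The median length of dinucleosomal fragments, taken in a range of 250 to 450 bp, did not follow this shift. It was 377 and 371.5 bp in the pericentric ends of the controls and 373 and 373.5 bp after H1 dsRNA, a difference of -1 bp with overlapping groups (exact permutation p = 1). In H1 replicate 1 the range of 250 to 450 bp also took in the rise to the maximum at 491 bp. The 10 bp from 440 bp held 1.79% of the pericentric length distribution there, against 1.15% in control replicate 1. The 10 bp from 350 bp held 1.59% in H1 replicate 1. The difference of -1 bp thus does not measure dinucleosomes alone. Fragments of 200 to 500 bp, a range that takes in the H1 maximum at 491 bp, gave 31.0 bp instead. The change of the difference to the rest was 8.5 bp (exact permutation p = 0.33), or 1 bp within replicate 1 and 16.0 bp within replicate 2.

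Coverage of the pericentric ends did not move detectably with H1 dsRNA. The log2 density ratio changed by 0.015, with overlapping groups (exact permutation p = 0.667), -0.023 within replicate 1 and 0.052 within replicate 2. By window, 0 of the 546 member windows tested passed limma's test with Benjamini-Hochberg adjustment over all 13194 windows, where 0.0% were called. At an unadjusted p under 0.05 there were 2 member windows of 27 in all. The median member window held 62 and 33 reads in replicate 1 of control and H1, and 1 read in each replicate 2. In replicate 2, 223 and 206 of the 683 member windows were empty, too few reads for this test to decide. The median change of the member windows was 0.024 (log2), against 0.023 over all windows tested.

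Tetranucleosomal fragments, the purified product of the BG3-c2 Illumina libraries, were slightly longer in the pericentric ends. Among fragments of 500 to 1000 bp the median was 677 bp (95% interval 677 to 678) and 678 bp (676 to 679) in the pericentric ends of the 2 controls, against 668 and 667 bp in the rest. After ISWI dsRNA it was 647 bp (646 to 647) and 637 bp (636 to 639), against 643 and 635 bp. With the arm ends pooled, pericentric fragments were the longer ones in 4 of 4 libraries, by 6.5 ± 4.20 bp (SD, n = 4). The exact sign-flip test gave p = 0.12, the smallest that 4 libraries allow. Leaving the dense bins out of both regions gave 5 and 7 bp in the controls and 0 bp in each ISWI library, with a mean of 3 bp. Leaving out only window 3L:23105001-23110000, chosen after its values were seen, gave 7, 8, 2 and 0 bp. The difference in the controls was smaller without these places, and that after ISWI dsRNA was at or near 0. Taken by 5 kb window, the median of window means was 667.4, 679.9, 648.2 and 646.0 bp for members and 666.4, 676.4, 646.2 and 647.8 bp for the rest, in the same order of libraries, so ISWI replicate 2 had the opposite sign.

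With the arm ends pooled, the same order was present in the untreated titration on Illumina, with 1 library per digest. The pericentric median was 708, 667 and 660 bp in the low, medium and high digest, against 701, 663 and 656 bp in the rest. Without dense bins the difference was 6, 3 and 2 bp. By 5 kb window, the median of window means was 700.1, 659.0 and 654.6 bp for members and 697.3, 658.8 and 654.1 bp for the rest. Of the members, 67.3%, 50.4% and 51.8% lay above the median of the rest, so by window little difference remained in the medium and high digests. Naked DNA had the opposite sign, with 645 bp (643 to 648) against 650 bp. Nanopore chromatin libraries, with fewer reads, differed by 2 and 5 bp in untreated BG3-c2, by -1 and -20.5 bp in Kc control and 3 and 4 bp in Kc H1. The low, medium and high nanopore digests gave 19.5, -1 and 6 bp. The sign thus varied between nanopore libraries.

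**Figure D3:**
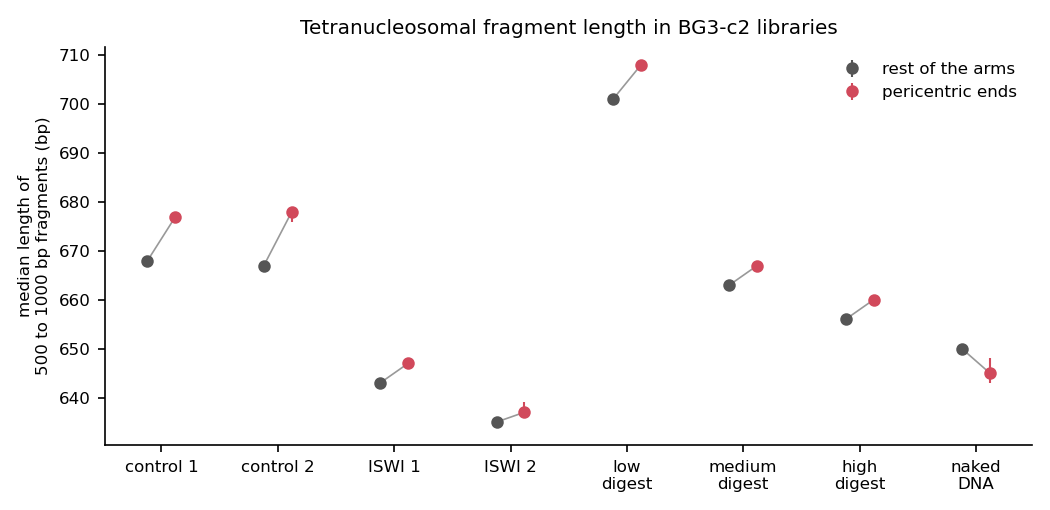
Median length of fragments of 500 to 1000 bp (y axis, bp, not starting at 0) in the pericentric ends and the rest of the arms in 8 BG3-c2 libraries, with 95% order-statistic intervals of the median as bars. The pericentric value, with the arm ends pooled, lies above the rest in the 7 Illumina libraries and below it in naked DNA.

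The difference was largest on 3L and 2L. On 3L the control medians were 681 and 682 bp against 668 and 668 bp in the rest of the arm, and on 2L 676 and 675 bp against 668 and 667 bp. On X they exceeded the rest by 3 and 4 bp and on 3R by -1 and 1 bp. After ISWI dsRNA the difference was -4 and -3 bp on X and -2 and -1 bp on 3R. In the low, medium and high Illumina digests it was 6, -1 and -1 bp on X and 0, -1 and -1 bp on 3R. On 2L and 3L the pericentric fragments were the longer ones in all of these libraries. In steps of 100 kb, 15 and 16 of the 16 steps inside the border of 3L lay above the median of the 10 steps outside it in control replicates 1 and 2. On 2L this held for 9 and 8 of 10 steps, on X for 2 and 2 of 4 and on 3R for 3 and 3 of 4. The highest step on 3L, at 701 and 713 bp, is the one that holds window 3L:23105001-23110000.

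**Figure D4:**
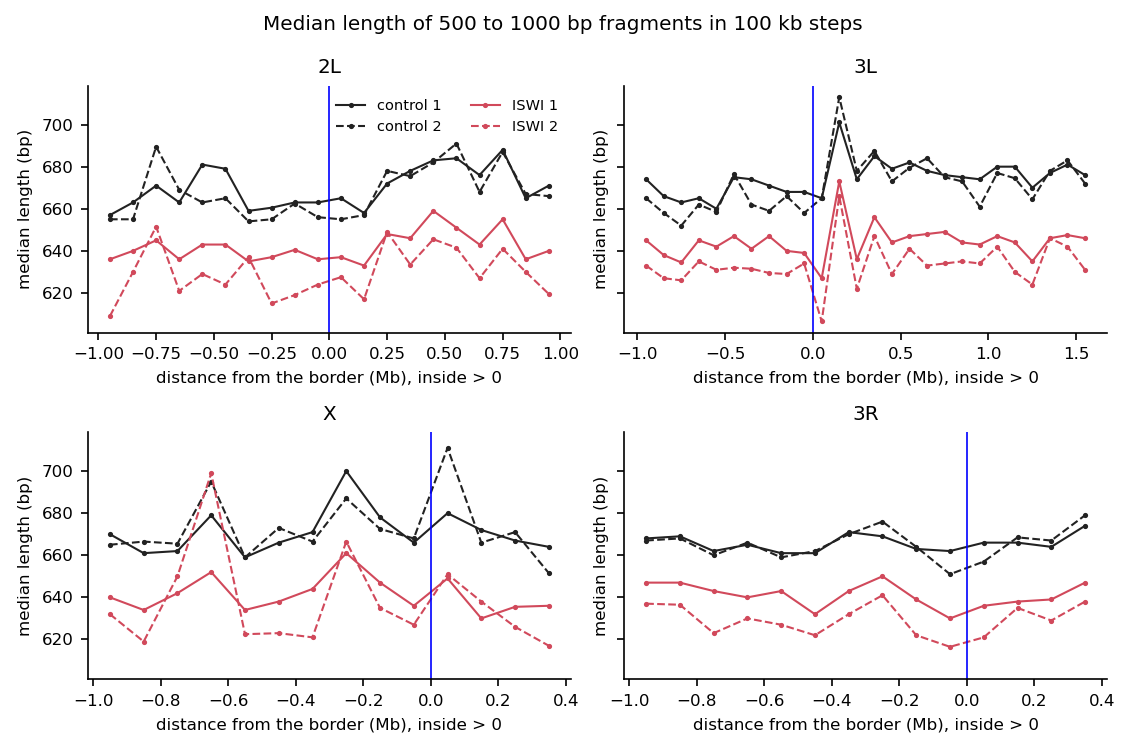
Median length of fragments of 500 to 1000 bp (y axis, bp) in 100 kb steps from the border of each pericentric end (x axis, Mb, positive inside), for the 2 control and 2 ISWI libraries. On 3L the control steps inside the border lie between 661 and 713 bp, and the ISWI curves run below the control of the same replicate in nearly every step.

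Just inside and just outside the border, values showed no common step. In control replicate 1 the first 100 kb inside had a median of 665 bp on 2L, 665 bp on 3L, 680 bp on X and 666 bp on 3R, and the last 100 kb outside had 663, 668, 666 and 662 bp. The log2 density relative to the rest of the arm was -0.55 inside and -0.57 outside on 2L, and -0.58 and -0.35 on X. On 3L it was -1.20 inside and -0.22 outside, and on 3R -0.35 and -0.78. On 2L and 3L the first step inside was thus shorter than the 676 and 681 bp of the whole arm end.

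Tetranucleosomal fragments were shorter after ISWI knockdown in the pericentric ends and in the rest of the arms. The pericentric median was 642 ± 7.07 bp after ISWI dsRNA and 677.5 ± 0.71 bp in controls (SD, n = 2 each). The difference was -35.5 bp, -30.0 bp within replicate 1 and -41.0 bp within replicate 2, with no overlap between groups (exact permutation p = 0.33, smallest possible). It exceeded the spread between replicates. The pericentric difference exceeded that of the rest in the same direction, by -7 bp on average, -5 bp between the first replicates and -9 bp between the second (exact permutation p = 0.33, groups not overlapping). With means in place of medians this extra change was -2.77 bp. In untreated BG3-c2 the pericentric median also depended on digestion, at 708 bp in the low and 660 bp in the high Illumina digest. The part of digestion in the ISWI difference was not tested.

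All 4 arm ends shared the direction of the ISWI response. Within replicates 1 and 2, the difference in median length was -29.0 and -39.0 bp at the end of 2L, -32.0 and -43.0 bp on 3L, -30.0 and -39.0 bp on X and -27.0 and -35.0 bp on 3R. The change beyond that of the rest of the same arm was -8 and -10 bp on 3L and -7 and -7 bp on X. It was -4 and -6 bp on 2L and -1 and -2 bp on 3R.

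Window by window, with lengths centred on the median window of each library, no member passed the test. For length, 0 of the 113 member windows with enough fragments passed limma's test with Benjamini-Hochberg adjustment, against 0.0232% of 4312 windows in all. At an unadjusted p under 0.05 there were 4 member windows of 168. On the centred scale these 113 member windows had a median difference of -4.74 bp (quartiles -9.71 and 0.77), against -0.013 bp over all windows tested. The size depended on the filter. With at least 15 fragments per library the median was -2.15 bp in 256 member windows, against 0.297 bp over all. With at least 60 it was -2.44 bp in 40 member windows, against -0.028 bp over all. Leaving out 1 library gave member medians of -6.21 to -2.61 bp. Without centring, 62 of the 113 member windows were called shorter, of 1500 windows called in all. Coverage of the pericentric ends differed by -0.01 (log2) between ISWI and control libraries, with overlapping groups (exact permutation p = 1). Of 679 member windows 0 passed limma's test for coverage, where 0.0% of 24003 windows were called, with 41 and 985 at an unadjusted p under 0.05.

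Regularity was measured from the distances between left fragment ends, which repeat at the nucleosome spacing where nucleosomes hold the same positions in many cells. The pericentric ends carried a weaker repeat than the rest of the arms in the tetranucleosomal controls. The in-phase component, which is signed, was taken in percent of the trend at the best period of the rest of the arms. It was 0.470 (SE of the fit 0.060) and 0.470 (0.276) in the pericentric ends of the controls, against 1.53 and 1.79 in the rest, with periods of 178 and 179 bp. After ISWI dsRNA it was 0.421 (0.092) and -0.253 (0.445), against 0.559 and 0.426 at 219 and 222 bp. At the controls' period of 178 bp the ISWI libraries gave 0.172 and 0.517 in the pericentric ends and 0.793 and 1.17 in the rest. At the best period of the rest the pericentric value was lower in 4 of 4 libraries, by -0.80 ± 0.51 percentage points (SD, n = 4, exact sign-flip p = 0.12, smallest possible). The difference was -1.06 and -1.32 in the controls but only -0.14 and -0.68 after ISWI dsRNA. Unsigned amplitudes, each at its own best period, were 0.538 against 0.979 and 1.18 against 1.21 in the ISWI libraries. The period in ISWI replicate 2 was not stable, at 180 bp without X. With right ends the mean difference was -0.33 (exact sign-flip p = 0.375), and ISWI replicate 2 then had the higher pericentric value, 1.27 against 0.757. With fragments of 500 to 1000 bp alone it was -1.62. Dense bins were left out here, and with them kept the pericentric component was 0.090 and -0.071 in the controls and 0.612 and -0.840 after ISWI dsRNA, against 1.47, 1.46, 0.392 and 0.521 in the rest. The order was then turned in ISWI replicate 1.

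The Illumina titration repeated this order in 3 further libraries. Pericentric in-phase components were 0.234 (0.035), 0.274 (0.034) and 0.383 (0.038) in the low, medium and high digest, against 0.787, 0.932 and 1.19 in the rest. Read at the best period of the rest, the pericentric component as percent of the rest was 30.7% and 26.3% in the controls. It was 29.7%, 29.4% and 32.2% in the 3 digests and 75.3% and -59.5% in the ISWI libraries. Searched on their own, the pericentric ends gave best periods of 187, 185, 189, 188 and 178 bp in the controls and the 3 digests, against 178, 179, 176, 178 and 175 bp in the rest. The percentages thus also depend on the period used. At these own periods the unsigned amplitude was 0.522, 0.514, 0.426, 0.402 and 0.393 in the pericentric ends. In the rest it was 1.54, 1.83, 0.866, 0.971 and 1.19, so the pericentric value remained the lower one in each of these libraries. On nanopore the errors were larger and the order varied. Kc control replicate 1 gave 0.634 (0.194) against 1.17, Kc H1 replicate 1 gave 0.564 (0.355) against 1.06, untreated BG3-c2 replicate 1 gave 0.467 (0.587) against 1.72, and naked DNA gave 0.013 (0.129). Kc H1 replicate 2 gave 4.74 (8.71) against 5.10. The other 5 nanopore chromatin libraries had the higher pericentric value. Untreated BG3-c2 replicate 2 gave 2.41 (4.05) against 1.04 and Kc control replicate 2 gave -1.97 (9.12) against -2.66. The low, medium and high digests gave 1.54 (1.01), 0.316 (0.807) and 0.204 (1.19) against 0.154, 0.183 and -0.387. The part of the lower alignment scores of these regions in the weaker repeat of the Illumina libraries was not tested.

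**Figure D5:**
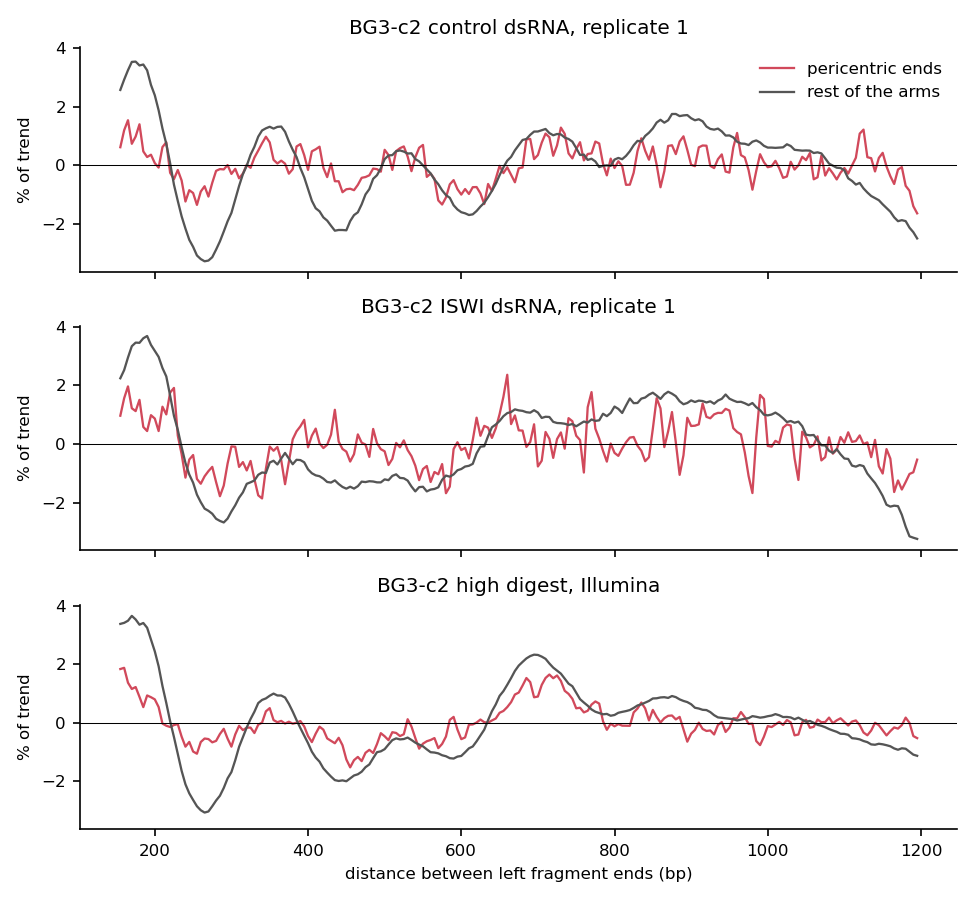
Number of pairs of left fragment ends at each distance (x axis, bp), as percent deviation from a quadratic trend, smoothed over 11 bp, in control replicate 1, ISWI replicate 1 and the high Illumina digest. The pericentric wave is lower than that of the rest of the arms in control replicate 1, with a fitted in-phase component of 0.470 against 1.53.

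Change of pericentric regularity after ISWI dsRNA was -0.39 percentage points, -0.048 within replicate 1 and -0.72 within replicate 2 (exact permutation p = 0.33). It had the opposite sign with right ends (0.16) and with the best amplitude over all periods (0.34). These libraries give no direction.

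Digestion was the last comparison, with 1 library per digest and hence no test. With more MNase, pericentric ends lost fragments relative to the rest of the arms. On Illumina the log2 density ratio was 0.011, -0.047 and -0.13 from the low to the high digest, a difference of -0.14 between high and low (95% counting interval -0.15 to -0.14). On nanopore the values were -0.099, -0.19 and -0.19, a difference of -0.088 (-0.14 to -0.041). Both platforms thus gave the lower ratio in the high digest, though on unlike fractions, size-selected on Illumina and total on nanopore. The Illumina difference was -0.072 against only the 2 Mb next to the border and -0.087 with identical intervals kept. The nanopore difference was -0.057 without dense bins and -0.048 by window medians.

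By window on Illumina, 50 of the 683 members (7.32%) were lower by 1.5-fold or more in the high digest, against 4.9% of the 24051 windows tested. Another 13 members (1.90%) were higher by that factor, against 2.03% of all. The members had a median log2 change of -0.14, against 0.049 over all windows. By arm end, the median was -0.23 on 2L, -0.076 on 3L, -0.12 on X and -0.18 on 3R, and 11 of the 76 windows on 3R were lower by 1.5-fold. The pericentric tetranucleosomal length fell by 48.0 bp from the low to the high digest, against 701 to 656 bp in the rest of the arms. Pericentric repeat lengths on nanopore were 192.8 ± 3.13, 177.8 ± 2.27 and 168.2 ± 3.35 bp (SE of the fit) in the low, medium and high digest, against 186.0, 178.6 and 171.5 bp in the rest. Adjusted over the 15 exact tests given above, p-values ran from 0.556 to 1.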

How the data were processed

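The authors deposited 1 table of fragment intervals (chromosome, start, end) per library. Bowtie 1.1.1, bedtools and the build dm3 are named in the submitters' processing notes, and the aligner used for each platform is not given in the sources used here. In 9 nanopore tables the deposited intervals carry a score, which was used only in an alternative. The 6 titration tables were matched to libraries through their names.

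Fragment length was end minus start. All intervals were used on nanopore and distinct intervals on Illumina. Regularity used distinct intervals and a quadratic trend plus a cosine at lags of 150 to 1200 bp, with periods of 150 to 250 bp. Its SE treats lags as independent. Windows were tested with limma 3.58.1 in R 4.3.3 (voom weights for coverage, a mean of at least 20 fragments; eBayes with trend for length, at least 30 fragments per library), Benjamini-Hochberg adjusted over all windows. Single values were tested by exact sign-flip or permutation tests over libraries, two-sided. Log2 ratios of windows used a pseudocount of 0.5. The windows named over naked DNA were the 3 highest and 3 lowest with at least 50 naked reads. The windows named after a limma test were to be up to 3 in each direction among those called whose groups do not overlap, and there were none. Methods were tested on simulated data. Wilson and order-statistic intervals cover counting error only. Members, tests and lists were chosen with earlier results of these data known. No genome or annotation of release 5 was used here, so genes, repeats and sequences of the windows were not analysed here.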

Additional observations from a re-analysis of the deposited data

How the results depend on the processing

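Of the alternatives run, 225 kept direction and side of the threshold, 24 turned the direction, 16 moved a count or value and 1 passed the threshold. The last was coverage over naked DNA in all 9 nanopore chromatin libraries, at 0.30 (exact sign-flip p = 0.043). These 9 libraries share the subtracted naked DNA library and pool both lines, the H1 knockdown and the digests. That p-value thus does not measure replicates of a single condition, and no conclusion is drawn from it. The mean of the 6 libraries, 0.41, was 0.36 to 0.53 with 1 of them left out. Exact tests of 2 against 2 libraries, and the sign-flip test of 4, cannot reach 0.05. For the turned values the cause was not tested. With a score of at least 20, which also drops the unscored BG3-c2 replicate 2, the short share differed by -0.096 and the long share by 0.33 percentage points. The long share differed by 0.31 without 3L and by -0.59 to 0.10 with 1 library left out, the last without BG3-c2 replicate 2. The H1 change of dinucleosomal length was 0.75 bp without dense bins, 1.00 bp at 100 kb or more inside the border, 31.0 bp for 200 to 500 bp, 2.75 bp without 2L, 0.50 bp without 3R and -3.75 to 1.75 bp with 1 library left out. The H1 change of coverage was -0.0021 against the nearest 2 Mb, -0.024 at a score of at least 20, -0.077 by window medians, -0.029 without 3L and -0.0064 to 0.036 with 1 library left out. The ISWI change of coverage was 0.0058 with all Illumina intervals, 0.0070 without X and -0.053 to 0.033 with 1 library left out. The ISWI change of regularity was 0.16 with right ends and 0.34 with the best amplitude. The H1 change of repeat length minus the rest was -12.3 bp from stepwise maxima and -3.89 to 11.7 bp with 1 library left out. The Illumina digest difference in coverage was -0.087 with all intervals, -0.072 against the nearest 2 Mb, -0.17 by window medians, -0.13 without 2L, -0.18 without 3L and -0.13 without 3R. The digest change of length was -50.0 bp without dense bins, -43.1 bp by means and -46.0 bp for 400 to 1100 bp. Member windows called for ISWI coverage numbered 0 to 4 with 1 library left out (4 of 677 without ISWI replicate 1, where 30 of all 23984 windows were called), and for ISWI length 62 without centring (1500 of all 4312). For H1 coverage they numbered 0 to 1 with 1 library left out (1 of 32 without Kc control replicate 1, with 9 of all 225), 4 of 30 at a mean of 40 fragments (38 of all 176) and 12 of 68 in 50 kb windows (362 of all 2404). Depth limits the shallow Kc replicates, with 936 and 955 pericentric reads.

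Replicate numbers are shared between groups, and no label says what a number marks. Deviations of same-numbered libraries had correlations of 0.26 (ISWI and control) and 0.015 (Kc) over windows. The share of intervals on the arms also went with the number, at 46.6% and 44.0% in replicate 1 and 17.0% and 14.7% in replicate 2 of control and ISWI. With 2 pairs each, pairing was not established. With a replicate block, 4 of 679 member windows were called for ISWI coverage (72 of all 24003), 0 of 113 for ISWI length (5 of all 4312) and 526 of 546 for H1 coverage (13004 of all 13194). The median member window held 1 read in each replicate 2 library of Kc, and the part of depth in the H1 count was not tested. The block cannot move a mean difference in this design.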
